A study of Mus musculus with 89 samples.

Results

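The Fgf ligands and receptors described here are 8 of the 54146 genes measured by RNA-seq in mouse embryonic stem cells (ESCs), namely the 4 ligand genes Fgf4, Fgf8, Fgf15 and Fgf17 and the 4 receptor genes Fgfr1, Fgfr2, Fgfr3 and Fgfr4. They were chosen by their gene symbol, and each matched 1 row of the deposited tables. Fgf4, the most abundant ligand gene in +E+N, was 3.53-fold lower after loss of both Esrrb and Nr5a2 in FCS/LIF and 5.27-fold lower in 2i/LIF, while Fgfr2 was 11.7-fold higher in 2i/LIF from a mean of 1.51 counts per 1000000 (CPM).

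Fgf ligands are secreted proteins that bind receptor tyrosine kinases at the cell surface together with heparan sulphate or a Klotho co-receptor, and the activated receptors signal through Frs2, Grb2 and Ras to the Mek and Erk kinases. Fgf4 made by ESCs themselves is the main driver of Erk activity in these cells and moves them towards lineage commitment, which is why a Mek inhibitor is part of 2i medium. In the blastocyst Fgf4 from the epiblast acts on Fgfr1 and Fgfr2, with Fgfr2 prominent in trophectoderm and primitive endoderm. Fgf8 and Fgf17 belong to one subfamily and act in the gastrulating embryo and the brain, and Fgf15 is an endocrine Fgf that acts with Klotho co-receptors.

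The study asked what Esrrb and Nr5a2, orphan nuclear receptors that bind similar DNA motifs, do together in ESCs. All groups used here are EKOiE ESCs, in which the endogenous Esrrb gene is knocked out and Esrrb is supplied by a TetO transgene induced with doxycycline (Dox), so no group has an intact Esrrb locus. The +E+N group was EKOiE with Dox at 1 µg/ml, and the −E group was EKOiE 2 days after Dox was withdrawn. The −N group was EKOiE NrKO with Dox, in which the exon encoding the first part of the Nr5a2 DNA-binding domain was disrupted on both alleles, and the −E−N group was EKOiE NrKO 2 days after Dox withdrawal. Each of the 4 states was measured in serum medium (FCS/LIF, 2 replicates) and in 2i/LIF, which contains inhibitors of Mek and Gsk3 (3 replicates), giving 8 groups and 20 libraries. Clone 4 of the NrKO line is the one the study names for RNA-seq, so the loss of Nr5a2 and the properties of 1 clone cannot be told apart, and neither can medium and culture batch. The study calls its replicates independent experiments, and the labels do not say whether they were separate cultures, so p-values measure the spread between these libraries.

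Library totals were 36514172 to 45443379 counts in FCS/LIF and 26653035 to 32526534 in 2i/LIF. Values are given as CPM, counts per 1000000 after TMM scaling over all 20 libraries, for comparing groups, and as the authors' TPM, which accounts for transcript length, for comparing genes. Esrrb was at 271 and 352 CPM in the +E+N libraries of FCS/LIF and at 74.2 and 65.1 CPM in −E. In 2i/LIF it was at 515 to 608 CPM in +E+N and 380 to 441 CPM in the libraries labelled −E, lower without overlap. In TPM it was at 187 to 273 and 113 to 133 in these groups. The fall was not called (log2 fold change −0.46, adjusted p = 0.116), so directions drawn from −E in 2i/LIF rest on the label. Esrrb in −E−N was at 28.9 to 31.3 CPM in FCS/LIF and 104 to 171 CPM in 2i/LIF. These counts may include RNA of the disrupted Esrrb alleles, which was not tested, so they do not measure the protein. Nr5a2 counts include RNA of its disrupted alleles and do not measure the protein either. They were at 25.5 and 27.1 CPM in −N of FCS/LIF and 63.9 to 78.4 CPM in −N of 2i/LIF. The 6 pluripotency markers summed to 2496 to 2743 CPM in +E+N of FCS/LIF and 3775 to 3947 CPM in 2i/LIF, and none was under 1 CPM in any group.

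The genes lie at separate loci apart from Fgf4 and Fgf15, which are neighbours on chromosome 7 of mm10, Fgf4 at chr7:144847367-144865243 and Fgf15 at chr7:144896531-144900953, both on the plus strand. Fgf8 lies on the minus strand at chr19:45736798-45742915 and Fgf17 on the minus strand at chr14:70636203-70642268. Fgfr1 spans chr8:25513654-25575718, Fgfr3 chr5:33721674-33737068 and Fgfr4 chr13:55152640-55168759, all on the plus strand. Fgfr2 lies on the minus strand of chromosome 7 and ends at 130162451, and 1 of its 27 annotated transcripts spans 2960900 bases whereas the next longest spans 103813. Exons of Fgfr2 share 314 bases on the same strand with exons of Ctbp2, a co-repressor gene with 3177 to 11755 counts per library. Ctbp2 was not called in −N or −E−N of 2i/LIF (log2 fold changes 0.07 and −0.18). In −E−N of FCS/LIF it was lower but under the fold limit for calls (−0.42, edgeR adjusted p = 0.000505). Between media it was called lower in +E+N of 2i/LIF (−0.87, edgeR adjusted p = 4.26e-07), the direction of Fgfr2. Fgf15 exons overlap 761 bases of the opposite-strand gene Gm26793, which had at most 44 counts. Counts are per gene, so the b and c splice forms of the receptors, which differ in ligand preference, were not separated.

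The promoters of Fgf4 and Fgfr2 are shown because these genes carry the main changes. Both are from RefSeq (GRCm38.p6), from 250 bases before to 50 bases after the annotated start, written 5′ to 3′ on the strand of the gene. Capitals mark a match to AAGGTCA or AAGGCCA, the short forms of the sites that Esrrb and Nr5a2 recognise, or to the longer TCAAGGTCA or TCAAGGCCA, searched on both strands. The Fgf4 promoter is at chr7:144861136-144861435 on the plus strand, and the Fgfr2 promoter at chr7:130266759-130267058 on the minus strand.
Fgf4: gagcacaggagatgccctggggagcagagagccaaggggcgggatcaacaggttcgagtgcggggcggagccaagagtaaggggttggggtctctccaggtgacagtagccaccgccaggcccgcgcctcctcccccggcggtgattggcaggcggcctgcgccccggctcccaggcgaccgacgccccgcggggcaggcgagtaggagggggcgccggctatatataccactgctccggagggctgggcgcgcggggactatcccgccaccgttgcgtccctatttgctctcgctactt
Fgfr2: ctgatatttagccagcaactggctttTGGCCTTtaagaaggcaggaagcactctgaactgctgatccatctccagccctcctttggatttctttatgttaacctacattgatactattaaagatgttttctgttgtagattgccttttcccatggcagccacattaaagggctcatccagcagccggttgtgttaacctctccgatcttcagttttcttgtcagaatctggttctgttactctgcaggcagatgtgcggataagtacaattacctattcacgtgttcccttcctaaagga
The Fgf4 window held none of the 4 motifs. The Fgfr2 window held AAGGCCA once, on the opposite strand at position −224 from the start, so that it reads TGGCCTT above. Of 32851 mouse promoters in the same table, 6.20% held AAGGCCA, 4.72% AAGGTCA, 0.591% TCAAGGCCA and 0.423% TCAAGGTCA, where a long match also counts as a short one. Windows of the same length for Fgfr3 (a pair of starts) and Fgfr4 held none of the 4. The Fgf4 window was 69.7% G or C and the Fgfr2 window 43.7%. A match of letters is a description and does not show binding.

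Fgf4 and Fgfr1 were the leading ligand and receptor genes in +E+N of both media. In FCS/LIF the order by TPM was Fgf4 (39.5 ± 3.56, SD, n = 2), Fgfr1 (31.6 ± 3.82), Fgfr2 (23.4 ± 6.73), Fgf17 (16.7 ± 1.20) and Fgf15 (7.17 ± 0.495), and the values of neighbouring genes in that order did not overlap. Fgfr3 (0.630 ± 0.156) and Fgfr4 (0.585 ± 0.431) overlapped each other, and Fgf8 was lowest at 0.225 ± 0.0212 TPM. In 2i/LIF only Fgf4 (51.3 ± 4.55 TPM, n = 3), Fgfr1 (36.7 ± 3.04 TPM) and Fgf17 (4.60 ± 1.98 TPM) stood apart from their neighbours. Fgfr2, Fgfr4, Fgf8, Fgf15 and Fgfr3 all had means under 1 TPM there, and each overlapped the next.

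**Figure D1:**
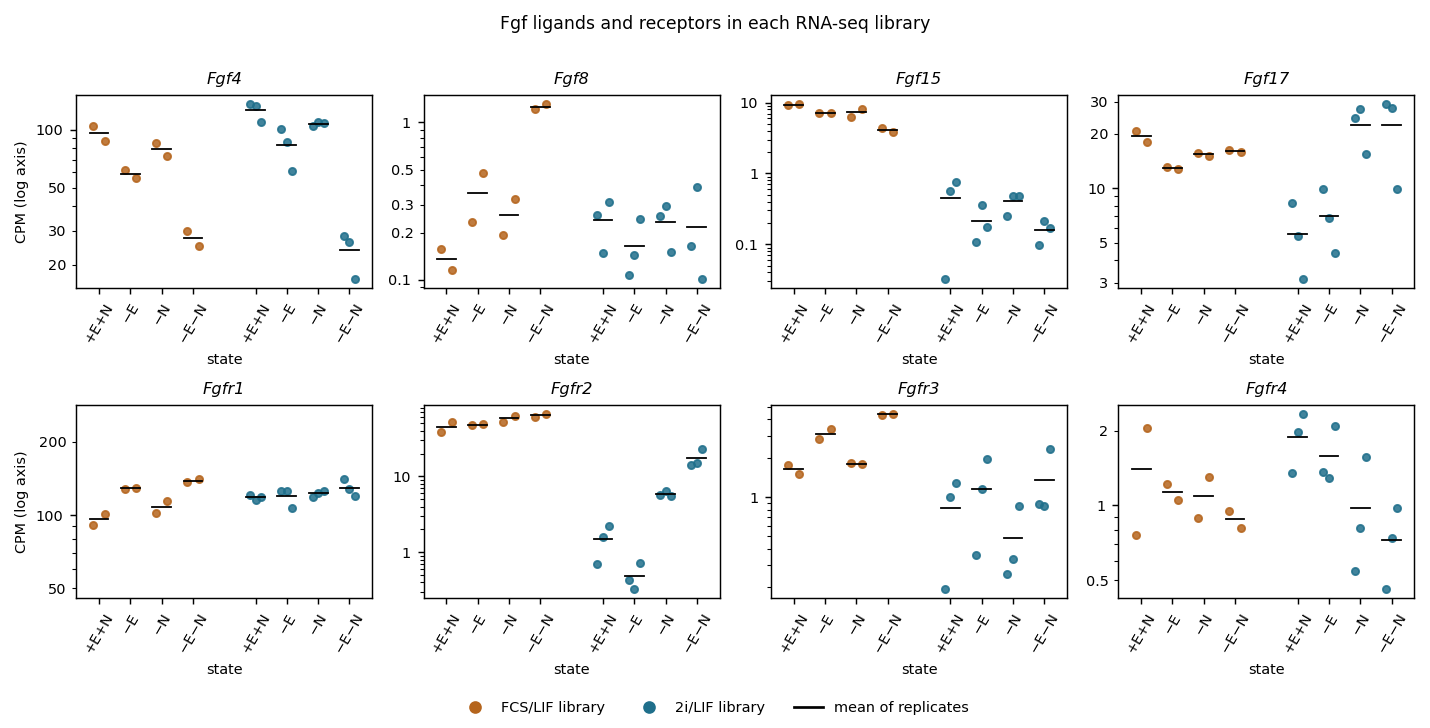
Level of each ligand and receptor gene in CPM on a log axis, 1 point per library, with FCS/LIF libraries in brown and 2i/LIF libraries in blue, and a bar at the mean of each state. Fgf4 is lowest in −E−N of both media, Fgfr2 climbs from 0.706 to 2.23 CPM in +E+N to 14.3 to 23.2 CPM in −E−N of 2i/LIF, and Fgfr1 stays between 91.2 and 141 CPM in all 20 libraries.

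Calls required an adjusted p under 0.01 in edgeR's quasi-likelihood test and a fold change over 1.5. All 8 genes passed the filter on low counts in FCS/LIF, Fgf8 only through −E−N, and 6 of 8 passed in 2i/LIF, where Fgf8 and Fgf15 stayed under 20 counts in at least 1 library of every state and Fgfr3 passed only through −E−N. A gene that passed only through the group where it is high had to differ, so Fgf8 in FCS/LIF and Fgfr3 in 2i/LIF are left out of the counts and given as values. In −E−N of FCS/LIF 3 of the other 7 were called, against 18.8% of all genes tested, with Fgfr3 higher (12.4% of all genes were higher) and Fgf4 and Fgf15 lower (6.40% were lower). In −E−N of 2i/LIF 3 of the other 5 were called, against 18.6% of all genes, with Fgf17 and Fgfr2 higher (9.06%) and Fgf4 lower (9.56%). Over all members that passed, with Fgf8 (FCS/LIF) and Fgfr3 (2i/LIF) included, the median log2 fold change was 0.09 and 0.45, beside 0.00 and 0.01 over all genes. With these genes left out, the middle values were those of Fgf17 (−0.29) in FCS/LIF and Fgfr1 (0.15) in 2i/LIF. On the TPM scale the median of all genes in −E−N of FCS/LIF shifted by 0.130 in log2(TPM + 1), and limma on that scale gave 77.3% of all calls as higher, against 65.9% in edgeR. No called member changed direction on it.

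Loss of 1 factor called fewer members. In −E of FCS/LIF Fgf4 and Fgf17 were lower (2 of 7 members other than Fgf8, against 5.76% of all genes). In −N of FCS/LIF none of these 7 was called by edgeR or DESeq2, where 0.173% of all genes were called, and 4 of the 7 had an unadjusted p under 0.05. In 2i/LIF none of 5 members other than Fgfr3 was called in the libraries labelled −E by edgeR, against 1.55% of all genes, with 2 at an unadjusted p under 0.05 and Fgfr2 called by DESeq2. In −N of 2i/LIF Fgfr2 alone was called, higher, of these 5 (3.65% of all genes), and DESeq2 also called Fgf17. These comparisons share the +E+N libraries.

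**Figure D2:**
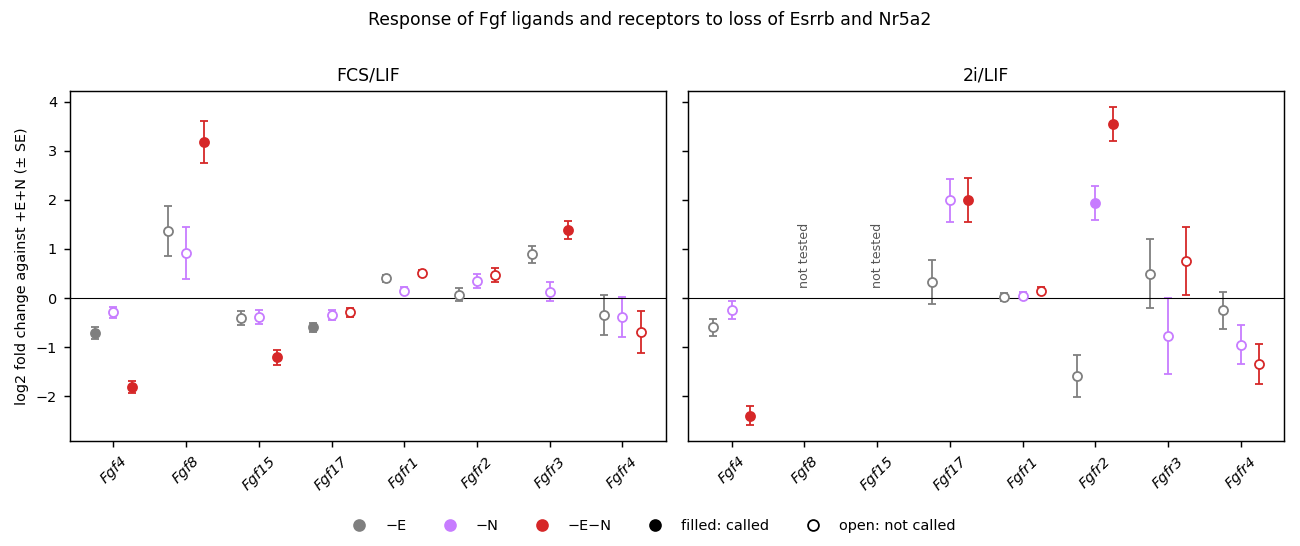
Log2 fold change (± SE) of each gene in −E (grey), −N (purple) and −E−N (red) against +E+N, in FCS/LIF on the left and 2i/LIF on the right, with filled points for called changes. The called changes in 2i/LIF are those of Fgf4 at −2.40, Fgf17 at 2.00 and Fgfr2 at 1.94 (−N) and 3.55 (−E−N), and Fgf8 and Fgf15 were not tested there. Fgf8 in FCS/LIF entered the test only through −E−N.

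Fgf4 was lower in −E−N of both media. In FCS/LIF its libraries were at 104 and 87.0 CPM in +E+N, 61.6 and 56.3 CPM in −E, 85.2 and 73.4 CPM in −N, and 30.0 and 24.9 CPM in −E−N. In 2i/LIF they were at 136, 133 and 110 CPM in +E+N, 101, 86.7 and 61.1 CPM in the libraries labelled −E, 104, 110 and 108 CPM in −N, and 28.2, 26.1 and 16.8 CPM in −E−N. Each −E−N library lay below every other library of its medium, and −E lay below +E+N without overlap in both media. The log2 fold change in −E−N was −1.82 ± 0.12 (SE, adjusted p = 1.08e-05) in FCS/LIF and −2.40 ± 0.20 (adjusted p = 2.01e-06) in 2i/LIF. In −E of FCS/LIF it was −0.71 ± 0.12 (adjusted p = 0.00346) and called, and in the 2i/LIF libraries labelled −E −0.60 ± 0.18 (adjusted p = 0.08) and not called. In −N it was −0.29 (adjusted p = 0.257) and −0.24 (adjusted p = 0.473). The call in −E of FCS/LIF was lost when +E+N replicate 1 or either −E library was left out, with adjusted p between 0.018 and 0.052, while both −E−N calls held with any 1 library left out.

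The Fgf4 difference in −E−N exceeded the sum of those in −E and −N by a log2 value of 0.82 in FCS/LIF and 1.56 in 2i/LIF, in the direction of lower expression. This interaction did not pass in edgeR (−0.82 ± 0.17, adjusted p = 0.189, and −1.56 ± 0.26, adjusted p = 0.0149), where 0.0320% and 0.307% of all genes passed. None of the members passed it. An unadjusted p under 0.05 was found for 2 of 7 (without Fgf8) in FCS/LIF and 2 of 5 (without Fgfr3) in 2i/LIF. DESeq2 called the interaction for Fgf4 in both media and for Fgfr2 in 2i/LIF. So did edgeR with the replicate number as a block (Fgf4 −0.82, adjusted p = 0.00211, and −1.57, adjusted p = 0.000275, and Fgfr2 3.13, adjusted p = 0.000783), a fit that also called the lower Fgf4 in the 2i/LIF libraries labelled −E (−0.62, adjusted p = 0.00316).

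Fgf17 fell in −E of FCS/LIF and rose in −E−N of 2i/LIF. In FCS/LIF it was at 20.8 and 17.9 CPM in +E+N, 13.1 and 12.8 CPM in −E, 15.7 and 15.1 CPM in −N, and 16.3 and 15.9 CPM in −E−N. The fall in −E was called (log2 fold change −0.60 ± 0.097, adjusted p = 0.00346) and the value in −E−N was not (−0.29, adjusted p = 0.0363). The call in −E was lost without +E+N replicate 1 or either −E library, with adjusted p between 0.0219 and 0.0461. In 2i/LIF Fgf17 was at 8.28, 5.42 and 3.13 CPM in +E+N, 9.89, 6.83 and 4.36 CPM in those labelled −E, 24.4, 27.4 and 15.5 CPM in −N, and 29.3, 27.9 and 9.87 CPM in −E−N. The lowest value of each 2i/LIF state was in replicate 3. The −N and −E−N libraries lay above all +E+N libraries, and the highest −E library, at 9.89 CPM, lay just above the lowest −E−N library. The log2 fold change was 2.00 ± 0.44 (adjusted p = 0.003) in −E−N and 1.99 ± 0.44 (adjusted p = 0.0125) in −N, and 0.01 ± 0.41 between −E−N and −N, and with the replicate block the −N value was called as well (2.05, adjusted p = 5.85e-06). The −E−N call was lost without −E−N replicate 1 or 2 or +E+N replicate 2 or 3, with adjusted p between 0.0124 and 0.0144.

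Fgf15 was lower in −E−N of FCS/LIF. It was at 9.17 and 9.60 CPM in +E+N, 7.17 and 7.12 CPM in −E, 6.32 and 8.19 CPM in −N, and 4.36 and 3.88 CPM in −E−N, with the −E−N libraries below all others of that medium. The log2 fold change in −E−N was −1.21 ± 0.15 (adjusted p = 0.000326), and those in −E (−0.41, adjusted p = 0.0827) and −N (−0.39, adjusted p = 0.234) were not called. Without any 1 library the calls of Fgf4, Fgf15 and Fgfr3 in −E−N against +E+N of FCS/LIF were kept. In 2i/LIF every library had 22 counts or fewer, and no response could be measured at this depth.

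Fgf8 was rare in every library. In FCS/LIF it had 6 and 5 counts in the +E+N libraries and 46 and 53 in −E−N, corresponding to 0.157 and 0.115 CPM and 1.21 and 1.31 CPM. Values in −E (0.234 and 0.476 CPM) and −N (0.192 and 0.324 CPM) lay between these. The log2 fold change in −E−N was 3.18 ± 0.43, given as a description because −E−N alone brought the gene past the filter, and at 2.36 ± 0.0707 TPM Fgf8 was below Fgf4, Fgf15 and Fgf17. In 2i/LIF Fgf8 had 3 to 11 counts in every library and the states overlapped.

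Fgfr1, the main receptor gene of these cells, was not called in any comparison of the reported fit. It was at 91.2 and 101 CPM in +E+N of FCS/LIF, 128 and 129 CPM in −E, 102 and 114 CPM in −N, and 137 and 140 CPM in −E−N. All 4 libraries of −E and −E−N lay above those of the other states, yet the changes were under the 1.5-fold limit (log2 fold change 0.40 ± 0.070, adjusted p = 0.00491, in −E and 0.51 ± 0.070, adjusted p = 0.000483, in −E−N). On the TPM scale, where the median of all genes shifted by 0.130, limma called it higher in −E−N of FCS/LIF. The limma values were 0.67 (adjusted p = 0.0033) at a pseudocount of 1 and 0.68 (adjusted p = 0.00297) at 0.1. In 2i/LIF the range over all states was 107 to 141 CPM, and the log2 fold change in −E−N was 0.15 ± 0.076 (adjusted p = 0.142).

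Fgfr2 gave the largest change of any member, in 2i/LIF. Its libraries were at 0.706, 1.60 and 2.23 CPM in +E+N, 0.428, 0.323 and 0.727 CPM in those labelled −E, 5.62, 6.38 and 5.43 CPM in −N, and 14.3, 15.0 and 23.2 CPM in −E−N. The −N and −E−N libraries overlapped neither each other nor the other states, while −E and +E+N overlapped. The log2 fold change was 1.94 ± 0.35 (adjusted p = 0.00406) in −N and 3.55 ± 0.35 (adjusted p = 9.16e-06) in −E−N, both called. In the libraries labelled −E it was −1.59 ± 0.42 (adjusted p = 0.0447), from 22 to 64 counts in +E+N to 9 to 21 counts in −E, and was not called, whereas the fit with the replicate block called it (−1.57, adjusted p = 0.00865). The interaction was 3.20 ± 0.53 (adjusted p = 0.0132). The −N call was lost without −N replicate 1 or 2 or +E+N replicate 2, with adjusted p between 0.0115 and 0.0199, and the −E−N call was kept without any 1 library. In FCS/LIF Fgfr2 was at 38.4 and 52.0 CPM in +E+N, 47.5 and 48.5 CPM in −E, 52.7 and 63.1 CPM in −N, and 60.9 and 66.3 CPM in −E−N. None of these differences was called (log2 fold change 0.47 ± 0.14, adjusted p = 0.0189, in −E−N, which was called without +E+N replicate 2 at 0.71, adjusted p = 0.00179), and the level in −E−N of 2i/LIF was below every FCS/LIF library.

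Fgfr3 rose in −E−N of FCS/LIF and Fgfr4 was not called in any state. Fgfr3 was at 1.78 and 1.51 CPM in +E+N, 2.81 and 3.36 CPM in −E, 1.85 and 1.79 CPM in −N, and 4.33 and 4.40 CPM in −E−N. The −E and −E−N libraries lay above those with Dox, and the log2 fold change was 1.39 ± 0.18 (adjusted p = 0.00036) in −E−N and 0.89 ± 0.18 (adjusted p = 0.0102) in −E, where the replicate block called it (0.89, adjusted p = 0.00581). In 2i/LIF Fgfr3 ranged from 0.193 to 2.37 CPM and the states overlapped. The log2 fold change of −E−N against −N there was 1.52 ± 0.74, and 1.56 with the replicate block. These values are a description, because −E−N alone brought the gene past the filter. Fgfr4, a receptor that pairs with Klotho co-receptors, was between 0.758 and 2.04 CPM in FCS/LIF with overlap of −E−N and +E+N. In 2i/LIF it was at 1.35, 1.97 and 2.33 CPM in +E+N and 0.460, 0.741 and 0.980 CPM in −E−N, without overlap (log2 fold change −1.35 ± 0.41, adjusted p = 0.0181, in the reported fit). It was called by DESeq2 (−1.36, adjusted p = 0.00856), with the replicate block (−1.37, adjusted p = 0.00056), with no filter beyond 1 count and without −N replicate 3 (−1.35, adjusted p = 0.00902).

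Withdrawal of Dox in NrKO cells and disruption of Nr5a2 in Dox-deprived cells were compared as well. In −E−N against −N of FCS/LIF 3 of 7 members other than Fgf8 were called (10.1% of all genes), with log2 fold changes of −1.53 for Fgf4, −0.82 for Fgf15 and 1.26 for Fgfr3. Leaving out 1 library took the call from Fgf15 (without −N replicate 2 or either −E−N library, adjusted p 0.0158 to 0.0397) and from Fgfr3 (without −E−N replicate 2, adjusted p 0.0126). In 2i/LIF Fgf4 (−2.16) and Fgfr2 (1.61) were called of 5 members other than Fgfr3, against 6.76% of all genes. The Fgfr2 call was lost without any of the −N libraries or −E−N replicate 3, with adjusted p between 0.0139 and 0.0195.

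In −E−N against −E of FCS/LIF Fgf4 (−1.10) and Fgf15 (−0.80) were called, 2 of 7 members other than Fgf8, against 5.05% of all genes. Fgf4 lost the call without −E replicate 1 or −E−N replicate 2 (adjusted p 0.0137 and 0.0138), and Fgf15 lost it without any of the 6 libraries of +E+N, −E and −E−N (adjusted p up to 0.0787). In 2i/LIF Fgf4 (−1.80) and Fgfr2 (5.14 ± 0.40, adjusted p = 2.89e-06) were called of 5 members other than Fgfr3, against 13.1% of all genes. Fgf17 was at 1.68 (adjusted p = 0.0106, and 7.78e-06 with the replicate block) and Fgfr4 at −1.12 with the block (adjusted p = 0.00351), where both were called. For Fgfr2 this is a 35.4-fold higher level than in the libraries labelled −E.

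The makeup of the ligand and receptor RNA shifted with state. In FCS/LIF Fgf4 made up 62.1% ± 1.45 (SD, n = 2) of the summed TPM of the 4 ligands in +E+N and 36.9% ± 2.45 in −E−N, and Fgf17 26.3% ± 0.139 and 45.9% ± 2.13, while the sum was 63.5 ± 4.24 and 34.1 ± 2.78 TPM. In 2i/LIF Fgf4 made up 90.4% ± 1.63 (n = 3) in +E+N and 34.8% ± 7.63 in −E−N, and Fgf17 7.94% ± 2.85 and 63.1% ± 8.49. Fgf17 was thus the larger ligand share in −E−N of both media, and in 2i/LIF the sum was 29.8 ± 11.9 TPM against 56.8 ± 5.56 TPM in +E+N. Among receptors Fgfr1 made up 56.7% ± 4.44 and Fgfr2 41.2% ± 3.81 in +E+N of FCS/LIF. In 2i/LIF Fgfr1 made up 95.4% ± 2.06 in +E+N, and Fgfr2 2.18% ± 1.36 in +E+N, 7.27% ± 0.871 in −N and 17.5% ± 5.11 in −E−N. The receptor sum in −E−N was 85.8 ± 2.53 TPM in FCS/LIF and 50.2 ± 1.13 TPM in 2i/LIF, against 56.3 ± 11.1 and 38.5 ± 4.03 TPM in +E+N. Shares carry no test.

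**Figure D3:**
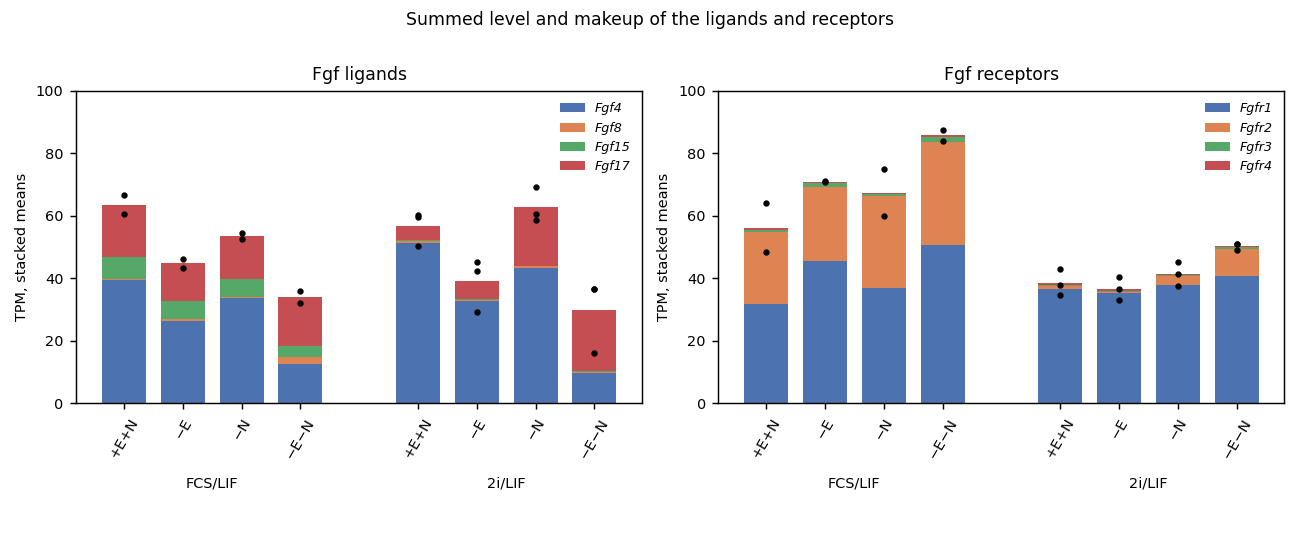
Stacked mean TPM of the 4 ligand genes (left) and the 4 receptor genes (right) in each state and medium, with black points for the sum in each library. Fgf17 is the largest part of the ligand bar in −E−N of FCS/LIF (45.9%) and of 2i/LIF (63.1%), and Fgfr2 is a large part of the receptor bar in every FCS/LIF state but 17.5% or less on average in 2i/LIF.

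Levels of the members in +E+N were also compared between the media. Fgf8 and Fgf15 passed the filter of this fit only through FCS/LIF groups and are left out of the count. Of the 6 members that also passed in 2i/LIF, Fgfr2 and Fgf17 were called between media in +E+N cells. Both were lower in 2i/LIF, and 2 of 6 is near the share of all genes called (34.7%). Fgfr2 was lower by a log2 value of −4.92 ± 0.28 (adjusted p = 3.39e-10), a 30.2-fold lower level, and Fgf17 by −1.78 ± 0.40 (adjusted p = 0.00114). Ctbp2, which shares exon bases with Fgfr2, was lower as well (−0.87), and its part in the Fgfr2 value was not tested. Fgf15 was at −4.39 ± 0.46, a description only, since FCS/LIF, where it is high, alone brought it past the filter. Fgf4 (0.40, adjusted p = 0.0772) was not called, and Fgfr1 (0.30, adjusted p = 0.0039) was under the fold limit. The response to −E−N differed between media for 2 of 7 members other than Fgf8, against 13.2% of all genes. It was higher in 2i/LIF for Fgfr2 (difference of log2 fold changes 3.05 ± 0.37, adjusted p = 2.43e-05) and Fgf17 (2.26 ± 0.57, adjusted p = 0.00854). For Fgf8 the difference was −3.35 ± 0.75, a description only, since −E−N of FCS/LIF brought it past the filter and each 2i/LIF library had 11 counts or fewer. Leaving out 1 library took the call from Fgf17 in 14 of 20 cases (adjusted p up to 0.0375) and in none from Fgfr2.

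The response to −E differed between media for none of the 7 members other than Fgf8 in edgeR (1.06% of all genes). Fgfr1 and Fgfr2 had an unadjusted p under 0.05 there, and Fgfr2 was called by DESeq2 (−1.67 ± 0.50, adjusted p = 0.0751 in edgeR). The response to −N differed for none in edgeR (0.743% of all genes), with Fgf17 (2.33 ± 0.57, adjusted p = 0.036) and Fgfr2 (1.60 ± 0.38, adjusted p = 0.0325) at an unadjusted p under 0.05, Fgfr2 called by DESeq2 and both called with the replicate block (2.38, adjusted p = 1.07e-05, and 1.63, adjusted p = 0.00135). The Fgf4 response to −E−N did not pass as different (−0.61 ± 0.27, adjusted p = 0.118), but did with the replicate block (−0.63, adjusted p = 0.00884), as did that of Fgfr1 (−0.40, adjusted p = 0.00405).

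Other genes of the pathway were taken from 4 lists. In −E−N, 12.4% of all genes tested were higher and 6.40% lower in FCS/LIF, and 9.06% and 9.56% in 2i/LIF. Of 18 other Fgf genes, not all of which encode secreted ligands, 9 were tested in FCS/LIF, and 3 were higher and none lower in −E−N. The named ones were Fgf5, a marker of the formative epiblast (log2 fold change 2.00 ± 0.14, adjusted p = 1.2e-05), and Fgf13, an intracellular Fgf that is not secreted (1.38 ± 0.13). In 2i/LIF 5 were tested, 2 higher and 3 lower, among them Fgf11 (−1.01 ± 0.25, adjusted p = 0.00608). Fgf5 was at 0.0321 to 0.237 CPM in 2i/LIF libraries and was not tested there. The list median of the log2 fold change was 0.08 over the 9 genes of FCS/LIF and −1.01 over the 5 of 2i/LIF.

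Of 20 co-receptors and extracellular modulators, 18 were tested in each medium. In −E−N of FCS/LIF 6 were higher and 1 lower (median 0.34), where 18.8% of all genes were called. In −E−N of 2i/LIF 6 were higher and 4 lower (median 0.27), where 18.6% of all genes were called. Fgfbp1, a secreted carrier that frees Fgf ligands from the matrix, rose in both (1.31 ± 0.17 in FCS/LIF and 4.60 ± 0.27 in 2i/LIF). In 2i/LIF it was at 2.95, 1.78 and 1.29 CPM in +E+N, 11.2, 11.7 and 8.65 CPM in −N, and 40.0, 42.3 and 63.2 CPM in −E−N, with no overlap, and its response to −E−N was larger there than in FCS/LIF (difference 3.25 ± 0.34, adjusted p = 5.76e-06). Cdh2, N-cadherin, which can bind Fgfr1, rose in both media (1.26 ± 0.11 and 2.00 ± 0.35), as did Sulf1, a heparan sulphate sulphatase (0.79 ± 0.087 and 1.90 ± 0.13). Of 22 intracellular transducers all were tested. In −E−N of FCS/LIF 2 were higher and none lower (median 0.04), against 18.8% of all genes called. In −E−N of 2i/LIF 2 were higher and 1 lower (median −0.01), against 18.6% of all genes called. Frs2, the adaptor docked to Fgf receptors, rose in both (0.74 ± 0.053 and 0.82 ± 0.093), the Ras exchange factor Sos2 rose in FCS/LIF (1.44 ± 0.17) and the Erk-activated kinase Rps6ka3 in 2i/LIF (0.86 ± 0.097).

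Feedback inhibitors and target genes of Erk signalling did not move together. Of 18, 5 were higher and 3 lower in −E−N of FCS/LIF (median 0.09), and of 16 tested in 2i/LIF, 3 were higher and 1 lower (median 0.18). Of all genes, 18.8% were called in −E−N of FCS/LIF and 18.6% in that of 2i/LIF. In FCS/LIF the Erk phosphatases Dusp5 (1.61 ± 0.11) and Dusp6 (0.90 ± 0.11) and the immediate early gene Fos (1.36 ± 0.19) rose. The feedback inhibitor Spry4 (−1.14 ± 0.086) and the Ets factors Etv4 (−1.16 ± 0.15) and Etv5 (−0.64 ± 0.064) fell, and Spry2 (−0.39 ± 0.090) was under the fold limit. Dusp6 was at 39.7 and 34.5 CPM in +E+N and 74.8 and 65.8 CPM in −E−N, while Spry4 was at 76.8 and 78.2 CPM and then 38.7 and 32.3 CPM, so these readouts of the same pathway went opposite ways in the same libraries. In 2i/LIF Etv4 fell (−1.79 ± 0.21, adjusted p = 3.45e-05) and Phlda1 rose (1.15 ± 0.23), while Dusp6 (−0.37 ± 0.41), Spry2 (0.18 ± 0.21), Spry4 (0.19 ± 0.80) and Etv5 (−0.39 ± 0.13) were not called. Spry4 in 2i/LIF ranged from 1.31 to 14.5 CPM, with the lowest value of every state in replicate 1.

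**Figure D4:**
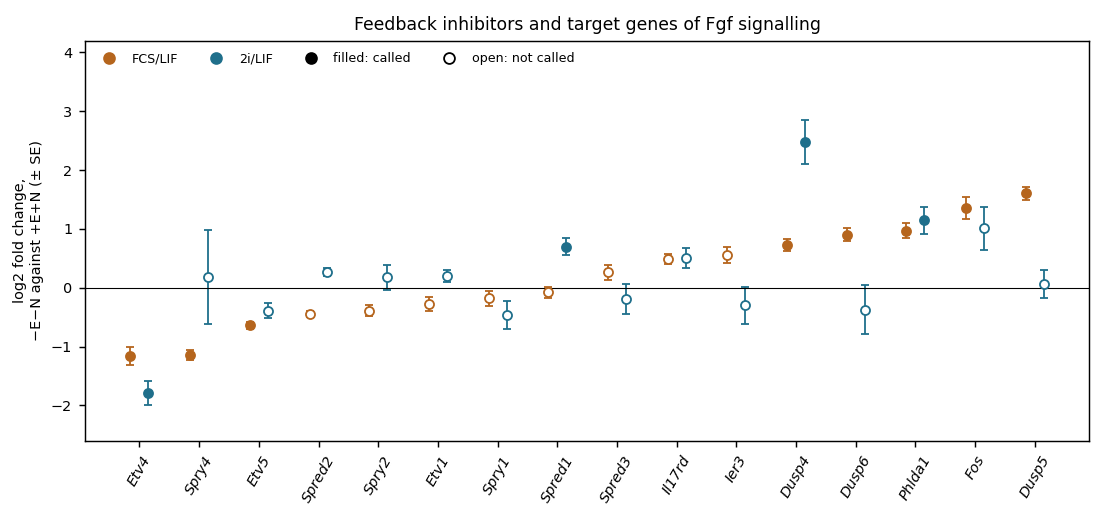
Log2 fold change (± SE) in −E−N against +E+N of the feedback inhibitors and target genes tested in both media, FCS/LIF in brown and 2i/LIF in blue, ordered by the FCS/LIF value, with filled points for called changes. Etv4 falls in both media (−1.16 and −1.79), whereas Spry4, Etv5, Dusp6, Fos and Dusp5 are called in FCS/LIF and not in 2i/LIF, and of these 5 the response passed as different between media for Dusp5.

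Between media, 11 of the 18 feedback and target genes were lower and 2 higher in +E+N of 2i/LIF (median −0.97, beside 0.01 over all genes), including Spry4 (−4.54 ± 0.66) and Dusp6 (−1.96 ± 0.36), with Etv4 higher (1.37 ± 0.22). Of all genes, 34.7% were called between media. The shares of all genes called with 1 factor lost were 5.76% in −E and 0.173% in −N of FCS/LIF, and 1.55% in −E and 3.65% in −N of 2i/LIF. In −E of FCS/LIF 2 of 9 other Fgf genes were called, Fgf5 (2.09 ± 0.14) and Fgf13 (1.04 ± 0.13), and 3 of 18 modulators, Cdh2 (1.07 ± 0.11), Fgfbp1 (1.09 ± 0.17) and Sulf1 (0.74 ± 0.087), all higher. Among 18 feedback and target genes Dusp5 (0.96 ± 0.11) and Dusp6 (0.74 ± 0.11) were higher and Etv4 lower (−0.84 ± 0.15), and of 22 transducers 0 were called by edgeR or DESeq2, with 9 at an unadjusted p under 0.05. In the 2i/LIF libraries labelled −E Sulf1 (0.91 ± 0.12) was the 1 gene called in edgeR, and the other 3 lists had 1 of 5, 3 of 22 and 2 of 16 genes at an unadjusted p under 0.05 and 0 called by DESeq2. None of these 4 lists had a called gene in −N of FCS/LIF in edgeR, with 2 of 9, 5 of 18, 4 of 22 and 2 of 18 at an unadjusted p under 0.05 and 0, 0, 1 and 1 called by DESeq2, in the order above. In −N of 2i/LIF 2 of the 18 modulators were called, both higher, Fgfbp1 (2.37 ± 0.26) and Sulf1 (0.96 ± 0.12), and in edgeR no gene of the other 3 lists, where 4 of 5 other Fgf genes, 6 of 22 transducers and 4 of 16 feedback and target genes had an unadjusted p under 0.05 and DESeq2 called 1, 0 and 0.

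Markers of other cell types moved beside Fgfr2, and in bulk RNA fewer cells of a type and less RNA per cell cannot be told apart. The summed level of 6 trophectoderm markers in 2i/LIF was 22.5 to 29.4 CPM in +E+N, 14.7 to 18.3 CPM in −E, 87.2 to 104 CPM in −N and 222 to 374 CPM in −E−N, the same order of states as Fgfr2. Most of that sum in −E−N was Krt8 (111, 92.2 and 184 CPM) and Krt18 (83.3, 76.8 and 131 CPM). Cdx2 did not have this order, at 2.60, 0.668 and 1.04 CPM in +E+N and 6.86, 2.16 and 3.29 CPM in −E (not called). In −E−N the keratins Krt8 (3.96 ± 0.27) and Krt18 (4.43 ± 0.23) and the transcription factors Cdx2 (5.03 ± 0.58) and Gata3 (1.47 ± 0.26) rose, 4 of 5 tested, and Tfap2a fell (−1.95 ± 0.19), with Elf5 under 1 CPM. In −N Krt8 (2.45 ± 0.26) and Krt18 (2.78 ± 0.23) were also higher. In FCS/LIF the same sum was 299 to 341 CPM in +E+N and 1210 to 1924 CPM in −E−N, again mostly Krt8 (734 and 1175 CPM in −E−N) and Krt18 (452 and 718 CPM). There 5 of 6 markers rose (12.4% of all genes were higher), Tfap2a fell, and Fgfr2 was not called. Of 8 primitive endoderm markers, whose cells also use Fgfr2, the sum in 2i/LIF was 46.6 to 54.7 CPM in +E+N and 12.7 to 16.4 CPM in −E−N, with Gata4, Gata6 and Sox7 under 1 CPM in −E−N. Lama1 carried that fall (44.3 to 1.51 CPM on average) and Gata4 was also lower, whereas Foxa2 (0.739 to 6.40 CPM) and Pdgfra (1.29 to 2.93 CPM) were called higher. The part of these cells in the level of Fgfr2 was not tested.

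**Figure D5:**
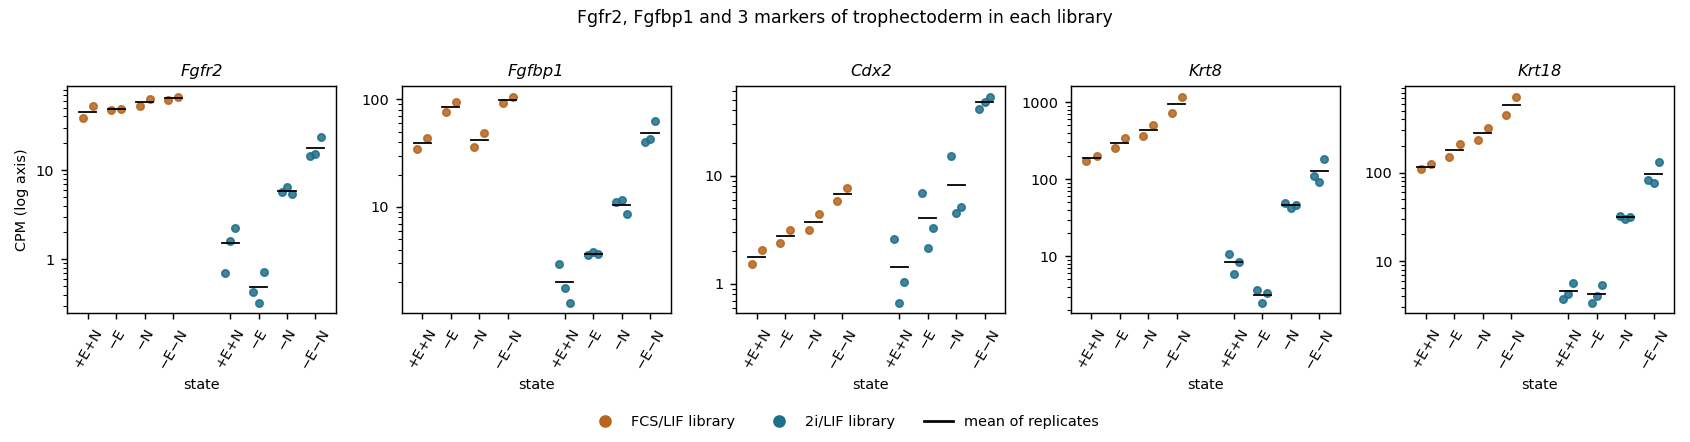
Level of Fgfr2, the Fgf carrier gene Fgfbp1 and the trophectoderm markers Cdx2, Krt8 and Krt18 in CPM on a log axis, 1 point per library, with a bar at the mean of each state. In 2i/LIF all 5 genes are highest in the 3 −E−N libraries, where Cdx2 is at 40.9 to 53.3 CPM and Fgfr2 at 14.3 to 23.2 CPM. Of the other trophectoderm markers, not drawn, Gata3 was called higher and Tfap2a lower in −E−N of both media. Elf5 was under 1 CPM in 2i/LIF.

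Other marker sums are given beside Fgf4, Fgf8 and Fgf17. The pluripotency sum was 1128 to 1253 CPM in −E−N of FCS/LIF and 1737 to 2343 CPM in −E−N of 2i/LIF. Of its markers 6 of 6 and 5 of 6 were called lower than in +E+N, beside 6.40% and 9.56% of all genes. The sum of 6 mesoderm and primitive streak markers, a tissue that expresses Fgf8, was 4.47 to 5.39 CPM in +E+N and 10.7 to 11.3 CPM in −E−N of FCS/LIF, with T and Eomes called higher and Mesp1, Gsc and Evx1 under 1 CPM in −E−N. The 6 neural markers summed to 52.0 to 52.1 CPM and 177 to 178 CPM in the same groups, of which Nes made up 38.5 and 163 CPM on average. Nes and Sox1 were called higher and Pax6 lower (8.72 to 3.56 CPM). The 6 formative markers summed to 723 to 752 CPM and 897 to 979 CPM, mostly Dnmt3b (616 and 771 CPM, not called), with Fgf5, Pou3f1 and Sox3 called higher and Otx2 lower (38.6 to 11.8 CPM). In 2i/LIF the mesoderm and primitive streak sum was instead lower in −E−N than its 19.8 to 22.8 CPM in +E+N, without overlap. Eomes and Gsc were called lower and T higher there. The neural sum in 2i/LIF overlapped, at 38.3 to 48.2 CPM in +E+N and 40.9 to 56.5 CPM in −E−N, with Pax6 called higher. The formative sum in 2i/LIF was 94.6 to 127 CPM and 244 to 299 CPM in these groups. Its markers Dnmt3b, Lef1 and Sox3 were called higher and Otx2 lower. Fibroblast or feeder markers summed to 13.5 CPM or less in every library. The part of such cells in the Fgf values was not tested.

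Genes whose pattern across the 20 libraries was most like that of a member are given as a description, by Pearson's r of log2(CPM + 1) after subtraction of each medium's mean, over 11632 genes that share these libraries. For Fgf4 they were Slc11a1 (r = 0.97) and the pluripotency-associated gene Dppa5a (0.97), and for Fgfr2 Eif4g3 (0.98) and Fam120b (0.97). The closest were Amd1 (0.92) for Fgf17, Rap2b (0.90) for Fgfr1, Olfr1372-ps1 (0.94) for Fgfr3 and Frs3 (0.91), itself an Fgf receptor adaptor, for Fgfr4.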

How the data were processed

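RNA-seq libraries of EKOiE and EKOiE NrKO ESCs were analysed (8 in FCS/LIF and 12 in 2i/LIF), and 69 ChIP and input samples were not analysed here. Stranded libraries of poly(A) RNA were mapped by the authors to mm10 (STAR) and quantified per gene (RSEM). The estimated counts were deposited unnormalized for 54146 genes and 92 ERCC sequences that had no counts, and the values were whole. TPM values, likewise from RSEM, were deposited beside them. Whether strand was used in counting is not given in the sources used here, so overlapping antisense genes may share reads.

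Counts were fitted per medium with edgeR 4.0.16 (TMM, quasi-likelihood, 4 states in one fit) in R 4.3.3, keeping genes that reached 20 counts in every replicate of some state, 15636 in FCS/LIF, 14355 in 2i/LIF and 16147 in the fit of all 20 libraries for comparisons between media. Genes were called at a Benjamini-Hochberg adjusted p under 0.01 and a fold change over 1.5 (no fold limit for the interaction and for differences between media). SE is the absolute log2 fold change divided by the root of F. The code was tested on simulated data. Alternatives were DESeq2 1.42.0, limma 3.58.1 with TPM on a log2 scale (pseudocount 1 or 0.1), other filters and size factors, the replicate number as a block, and leaving out each library.

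Replicates differed beyond counting noise (chi-square per degree of freedom 4.28 to 28.3), so none was a repeated library. The members, pathway lists and markers were chosen with earlier results of these data known. Named list genes are the 2 largest called changes per list and medium in −E−N with a mean of at least 100 counts, plus Dusp6, Spry2, Spry4, Etv4, Etv5 and Fgf5. Gene coordinates are from GENCODE vM21. Some genes of the lists are counted but not reported by name.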

Additional observations from a re-analysis of the deposited data

Results flagged for a closer look

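The response to −E−N passed as different between FCS/LIF and 2i/LIF in a direct test for 2 of 7 members other than Fgf8, against 13.2% of all genes. Fgfr2 was higher by 3.05 on the log2 scale in 2i/LIF than in FCS/LIF (adjusted p = 2.43e-05), and its groups did not overlap in 2i/LIF. Fgf17 was higher by 2.26 (edgeR adjusted p = 0.00854), a call that was lost with limma on TPM and with many of the libraries left out singly. Fgf8 was at −3.35, with 3 to 11 counts in each 2i/LIF library, and since −E−N of FCS/LIF, where it was high, alone brought it past the filter, this value is a description. Medium and culture batch cannot be told apart.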

How the results depend on the processing

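Of 2268 alternative values for 116 pairs of a member and a comparison, none of the called values changed sign. Apart from leaving out libraries, 750 kept their side of the threshold, 43 gained a call, 15 lost one and 4 uncalled values changed sign by more than their SE. With libraries left out, 1379 were kept, 11 gained a call, 57 lost one and 9 changed sign. In FCS/LIF leaving out a library leaves 1 in its state, which is assumed to vary like the other groups.

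Counts of called members, here with Fgf8 and Fgfr3 included, moved as follows, and the cause was not tested. DESeq2 called 1 in the FCS/LIF interaction, 1 in −E and 2 in −N of 2i/LIF, 2 in the 2i/LIF interaction, and 1 each in the differences between media of the −E and −N responses. Without a filter beyond 1 count, these were 1, 2, 2, 2, 2 and 2. limma on log2(TPM + 1) called 0 in −E of FCS/LIF, and on log2(TPM + 0.1) 0 there, 0 in −N of 2i/LIF and 1 in −E−N against −N of 2i/LIF. Leaving out 1 library gave 0 to 2 in −E of FCS/LIF, 1 to 4 in −E−N against −N and 0 to 3 in −E−N against −E of FCS/LIF, 0 to 2 in −N, 1 to 2 in −E−N against −N and 0 to 1 in the interaction of 2i/LIF, and 0 to 1 and 1 to 4 in the differences between media of the −N and −E−N responses.

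With the replicate number as a block, calls were 1 in the FCS/LIF interaction, 2 in −E, 2 in −N, 4 in −E−N against −E and 2 in the interaction of 2i/LIF, and 2 and 5 in the differences between media of the −N and −E−N responses. In 2i/LIF 17 of 18 same-numbered pairs of libraries deviated together with r over 0.1 (lowest 0.007343, +E+N and −E−N replicate 2), and in FCS/LIF 12 of 12 (lowest 0.1162). With 2 replicates a state the deviations from the mean mirror each other. Each FCS/LIF value therefore occurs once for each replicate number, and the pairs are not independent. The labels give the number no meaning, so the fit without the block is the one reported, with blocked values beside the calls of members they change. The count of all genes called also moved by over 1.5 times. In −N of FCS/LIF it was 27, and 264 with DESeq2, 548 without the filter, 305 with the block and 9 or 7 with limma at a pseudocount of 1 or 0.1. In −E of FCS/LIF it was 901, and 1631 without the filter and 553 with limma (1). In −E−N against −N of FCS/LIF it was 1573, and 2556 without the filter, and against −E 790, and 1571 without the filter, 1265 with the block and 482 or 467 with limma. In the FCS/LIF interaction it was 5, and 63 with DESeq2, 242 without the filter, 40 with the block and 2 with limma (1). In −E of 2i/LIF it was 223, and 447, 401 and 596 with DESeq2, no filter and the block and 136 or 146 with limma. In −N of 2i/LIF it was 524, and 860, 828, 1115 and 313 or 309 in the same order. In −E−N against −N of 2i/LIF it was 970, and 1622 with the block. In the 2i/LIF interaction it was 44, and 303, 212, 324 and 11 or 7. For the differences between media it was 171 for −E, and 532, 706, 728 and 280 with limma (1), 120 for −N, and 456, 809, 686 and 70 or 56, and 2136 for −E−N, and 3703 with the block. Genes with few counts, Fgf8 in both media and Fgf15, Fgfr3 and Fgfr4 in 2i/LIF, are limited by depth.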
